A study of Mus musculus with 64 samples.

Results

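A set of 8 receptors of the tumour necrosis factor (TNF) receptor superfamily that T cells carry was followed through a genotype by time experiment: Tnfrsf4 (OX40), Tnfrsf8 (CD30), Tnfrsf9 (CD137), Tnfrsf18 (GITR), Tnfrsf25 (DR3), Tnfrsf1a (TNFR1), Tnfrsf1b (TNFR2) and Cd27. They were taken by symbol from a deposited table of 23134 genes, in which 8 of 8 were found. All 8 passed the filter on low values, each with reads at or above its cutoff in 64 of 64 libraries, so none passed through 1 group alone.

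Receptors of this superfamily are single-pass membrane proteins that bind trimeric ligands of the TNF family, most of them displayed on the surface of antigen-presenting cells or of activated T cells. Clustered receptors recruit TRAF adaptors, and from there signal to NF-kappaB and mitogen-activated kinases. OX40, CD30, CD137, GITR, DR3, TNFR2 and CD27 act as costimulators that prolong the survival and expansion of T cells after antigen contact, whereas TNFR1 and DR3 also carry a death domain. The mRNAs of several of them are short-lived. Roquin-1 (Rc3h1) and its paralog Roquin-2 (Rc3h2) bind small stem-loops in 3′ untranslated regions (UTRs) and recruit mRNA decay enzymes, and the OX40 mRNA is among their known targets. Regnase-1 (Zc3h12a) is an endonuclease that cuts mRNAs at stem-loops of a similar shape.

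The cells were CD4 T cells from the spleens of C57BL/6J mice. The TKO group was Rc3h1/2 fl/fl together with Zc3h12a fl/fl, the DKO group was Rc3h1/2 fl/fl, the KO group was Zc3h12a fl/fl, and the WT group had no floxed allele. All 4 genotypes carried Cd4-Cre-ERt2, a tamoxifen-inducible Cre made from the Cd4 locus, and the labels describe treatment with 4´-OH-tamoxifen, so the WT cells share the Cre and, as far as the labels say, the drug. The cells were activated in culture with antibodies to CD3 and CD28 under Th1 conditions and then rested with IL-2, and were collected without restimulation (0 h) or after 1, 2 or 4 h with the same antibodies. Each of the 16 groups had 4 libraries, 64 in all. Whether a group's 4 libraries stem from 4 mice is not stated, so p-values here measure library-to-library spread, part of which may be technical. The fit treats all 64 libraries as independent, so mice shared between times would not be accounted for.

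Libraries held 5369858 to 11666495 reads (median 7720333), and no library pair of a group differed by as little as sampling noise. Cd3d, Cd3e, Cd3g and Cd4 were detected in every library. Of the markers of other cells, the myeloid gene Lyz2 was at 0 in 53 of the 64 libraries, the NK cell genes Ncr1 and Klra8 in 41 and the B cell genes Ms4a1 and Cd79a in 23 and 7. Others were at 0 in no library: Ighm and Pax5 of the B cell list (up to 4681.4 and 45.6), Itgam and Ctss of the myeloid list (up to 55.1 and 716.1), Eomes of the NK cell list (up to 582.1), and the CD8 T cell genes Cd8a and Cd8b1 (up to 242.3 and 242.6). Rc3h1 was lower in DKO than in WT cells at all 4 times (log2 changes -0.32 to -1.17) and lower in TKO cells at 1, 2 and 4 h (-0.53, -0.84 and -0.98), with no call in KO cells. Zc3h12a was lower at 1 and 2 h in TKO (-0.92 and -0.79) and in KO cells (-0.72 and -0.63), but at 0 h it was higher in TKO cells (0.59), in which it is floxed, and not called in KO cells (0.33). In DKO cells it was higher at 0, 2 and 4 h (1.78, 0.65 and 1.17). Rc3h2 was not lower in TKO or DKO cells at any time: it was higher in TKO cells at all 4 times (0.37 to 0.53) and in DKO cells at 0 h (0.37). Values are sums over whole genes, so a transcript that lost a floxed exon would still be counted, and these values check the deletions only in part. In each TKO group 1 library lay farthest from its group mean (the 4th listed at 0 h and 1 h, the 2nd at 2 h, the 1st at 4 h), and its Tnfrsf8 and Tnfrsf9 values lay below those of the other 3 TKO libraries at all 4 times. The farthest library of the group was also the lowest for Tnfrsf8 at all 4 times in DKO and at 3 of 4 in KO cells. Where a call printed below changed without the farthest library of each group, the value without those libraries stands beside it.

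Levels below are the authors' normalized read counts after a further rescaling between libraries (trimmed mean of M values), given as mean ± SD over 4 libraries. Changes are on the log2(level + 1) scale with their standard error (SE) from limma, and a change is called when the p-value adjusted over 16140 genes (Benjamini-Hochberg) is below 0.05. In bulk RNA a lower level per cell and fewer cells that express a gene cannot be told apart.

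In unstimulated cells, 6 of the 8 receptors were higher and 1 was lower in TKO than in WT cells, where 19.3% of all genes were called higher and 18% lower. At 1 h 5 were higher and 2 lower (15.8% and 15.7% of all genes), at 2 h 3 higher and 1 lower (20% and 16.4%), and at 4 h 2 higher and 1 lower (27.4% and 16.3%). In DKO against WT cells the counts were 4 higher and 0 lower at 0 h (5.33% and 2.27% of all genes), 3 and 1 at 1 h (5.94% and 2.27%), 2 and 1 at 2 h (7.96% and 1.51%) and 2 and 0 at 4 h (4.68% and 0.688%). In KO against WT cells they were 2 and 0 at 0 h (1.17% and 0.167%), 2 and 0 at 1 h (1.84% and 0.316%), 3 and 1 at 2 h (4.68% and 1.25%) and 2 and 0 at 4 h (21.7% and 11.4%). Between mutants, 1, 2, 3 and 2 receptors were called in either direction in TKO against DKO cells at the 4 times (14.8%, 4.16%, 6.8% and 12.4% of all genes), and 2, 1, 2 and 1 in DKO against KO cells (1.18%, 1.32%, 2.78% and 3.05%). In TKO against KO cells 4, 5, 2 and 0 were called (20.2%, 9.67%, 11.6% and 2.59%), and 3 had an unadjusted p under 0.05 by limma at 4 h. The median log2 change of the 8 receptors at 0 h was 1.31 in TKO, 0.99 in DKO and 0.56 in KO cells, beside 0.07, -0.04 and -0.03 over all genes. At 4 h it was 0.07, 0.02 and 0.07, beside 0.20, 0.07 and 0.22 over all genes. Restimulation for 1, 2 and 4 h changed 1, 4 and 6 receptors in TKO cells (22.3%, 47.3% and 50.4% of all genes), 3, 4 and 5 in DKO cells (31.9%, 55.1% and 55.1%), 3, 4 and 6 in KO cells (29.2%, 58% and 60.5%) and 3, 3 and 5 in WT cells (31.1%, 52% and 51.7%). Tnfrsf8 and Tnfrsf25 were the receptors called higher in TKO and in DKO cells at all 4 times, and Cd27 the one called lower in TKO cells at all 4 times.

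**Figure D1:**
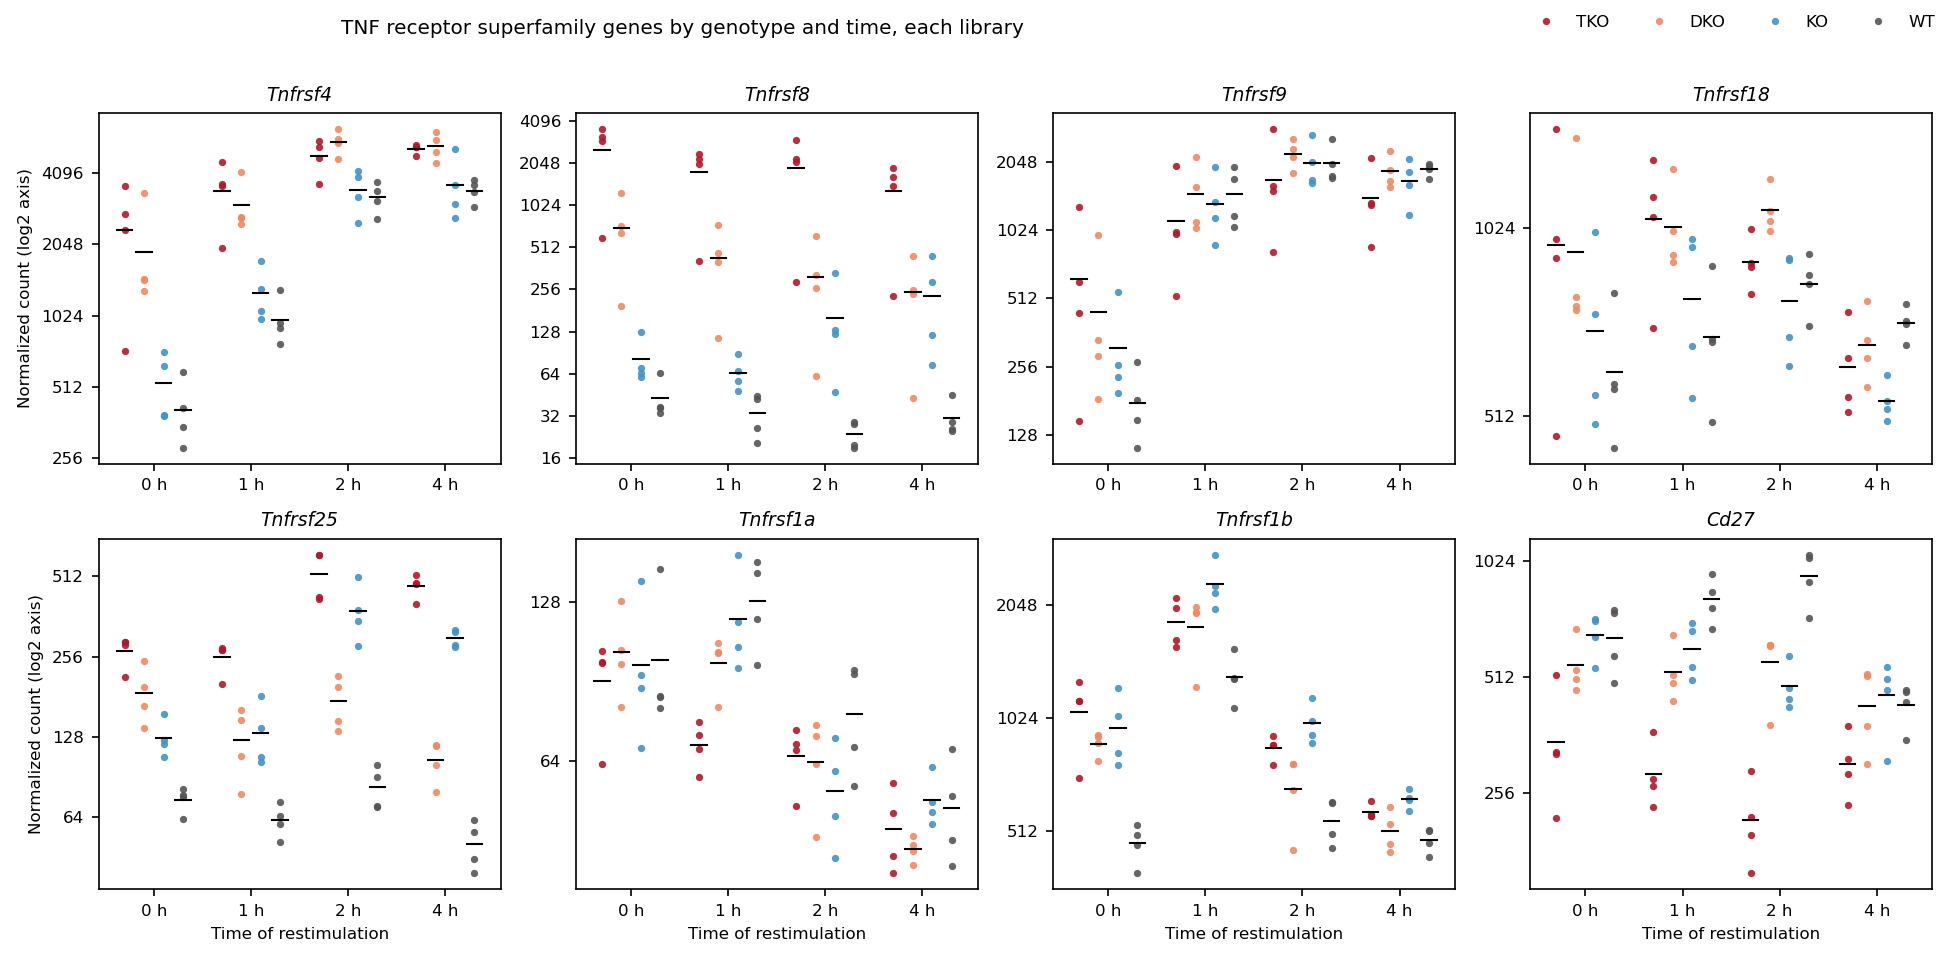
Level of each of the 8 receptors (rescaled normalized read count, log axis) at 0, 1, 2 and 4 h of restimulation in TKO, DKO, KO and WT cells. Points are single libraries, 4 per group, coloured by genotype, and short black lines are group means. Tnfrsf8 libraries overlap between neighbouring genotypes at several times, with TKO means of 1292.4 to 2552.8 above WT means of 24.0 to 43.0, while the 4 genotypes of Tnfrsf9 lie together from 1 h on.

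Tnfrsf4, the gene of OX40, lies on chromosome 4 (GRCm38, 156013843 to 156016612, plus strand). At 0 h its levels were 2351.2, 3616.8, 2738.9 and 723.2 in the 4 TKO libraries, 1304.8, 1440.1, 3348.4 and 1460.4 in DKO, 624.3, 718.8, 385.5 and 390.3 in KO, and 345.2, 418.8, 283.6 and 592.1 in WT. Every TKO and every DKO library lay above every WT library, a pattern that 13.7% and 6.72% of all genes showed, and the KO and WT libraries overlapped. The change against WT was 2.36 in TKO (SE 0.30, adjusted p = 1.8e-08) and 2.14 in DKO cells (SE 0.30, adjusted p = 8.52e-07), that is 5.75-fold and 4.61-fold between means. In KO cells it was 0.37 and not called. TKO and DKO cells were also higher than KO cells at 0 h, by 1.99 and 1.77 (adjusted p = 3.16e-06 and 0.000133).

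At 1 h Tnfrsf4 averaged 3441.2 ± 1073.3 in TKO, 2980.4 ± 780.7 in DKO, 1279.1 ± 334.6 in KO and 984.9 ± 228.7 in WT cells, and the changes against WT were 1.77 in TKO and 1.59 in DKO cells (adjusted p = 8.12e-06 and 0.000208). At 2 h the means were 4812.0 ± 841.1 in TKO, 5526.1 ± 646.2 in DKO, 3460.7 ± 741.7 in KO and 3229.7 ± 490.1 in WT cells, and at 4 h 5175.8 ± 233.9, 5300.3 ± 708.9, 3627.5 ± 1111.6 and 3444.5 ± 382.5 in the same order. At these 2 times no genotype was called against WT, with TKO changes of 0.57 and 0.59 and DKO changes of 0.78 and 0.62. All DKO libraries lay above all WT libraries at both times and all TKO libraries at 4 h, where 9.5% (DKO, 2 h), 10.7% (DKO, 4 h) and 29% (TKO, 4 h) of all genes did so. Without the library of each group farthest from its mean, TKO cells were called at 2 and 4 h (0.68 and 0.64, adjusted p = 0.0346 and 0.0454) and DKO cells at 2 h (0.75, adjusted p = 0.0451). Fitting only the groups compared called both genotypes at both times. The authors' deposited table also has all 4 below a rate of 0.05 (0.031 and 0.024 for TKO, 0.018 and 0.03 for DKO at 2 and 4 h). Over 0 h, Tnfrsf4 changed by 0.70, 1.23 and 1.35 at 1, 2 and 4 h in TKO cells and by 0.74, 1.66 and 1.60 in DKO cells, called at 2 and 4 h in both, and at 1 h in DKO cells without the farthest library of each group (0.68). In KO cells it rose by 1.29, 2.73 and 2.78, and in WT cells by 1.29, 3.02 and 3.12, called at all 3 times. The gain was smaller in TKO than in WT cells, with differences of -1.79 at 2 h (SE 0.42, adjusted p = 0.00577) and -1.76 at 4 h (adjusted p = 0.00493). These 2 differences, and the TKO change at 2 h over 0 h (1.23), were not called when only the groups compared were fitted. Of the 8 receptors 0, 2 and 4 had a change over 0 h that differed between TKO and WT cells in either direction at 1, 2 and 4 h, and of all genes 0.781%, 4.58% and 6.61%. For DKO cells the differences of -0.55 at 1 h, -1.36 at 2 h and -1.52 at 4 h were not called, the last with a call (-1.71) without the 4th WT library at 0 h.

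Because Roquin proteins are known to bind small stem-loops, the 3′ UTRs of the 8 receptors were searched for one shape: a perfect stem of 4 or more pairs that closes a loop of 3 bases in the order pyrimidine, purine, pyrimidine. The sequences are from the GENCODE transcripts on GRCm38, in DNA letters, with the loop in capitals. The 3′ UTR of Tnfrsf4 is 180 bases long and holds 2 such hairpins, the longer of which has 6 pairs and starts 109 bases after the stop codon (chr4:156016541-156016555, plus strand). The other hairpins are shown to compare stem and loop.
Tnfrsf4, 6 pairs: gtatgcTATgcatac
Tnfrsf4, 4 pairs: agtcTGTgact
Tnfrsf1b, 5 pairs: aaggcCACgcctt
Tnfrsf8, 4 pairs: cttgTATcaag
Tnfrsf1a, 4 pairs: gatgTACcatc
Cd27, 4 pairs: caggTGCcctg
The Tnfrsf1b hairpin of 5 pairs starts 698 bases after the stop codon (chr4:145215077-145215089, minus strand), and 2 further hairpins of 4 pairs lie in the same 3′ UTR. The Tnfrsf8 hairpin is at chr4:145268017-145268027 on the minus strand, that of Tnfrsf1a at chr6:125362203-125362213 on the plus strand and that of Cd27 at chr6:125232789-125232799 on the minus strand. Tnfrsf9, Tnfrsf18 and Tnfrsf25 held none.

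How often such a shape occurs depends on the length searched. Among 17757 other genes with a 3′ UTR at least as long as that of Tnfrsf4 and read over the same 180 bases, 3.19% held a hairpin with 5 or more pairs. For Tnfrsf1b, with a 3′ UTR of 2324 bases, the same share was 34.7%. A hairpin of 4 pairs was present in 66.1% of the other 3′ UTRs over the 1854 bases of Tnfrsf8, in 24.8% over the 490 bases of Tnfrsf1a and in 32.4% over the 688 bases of Cd27. Of the 2 receptors with a stem of 5 or more pairs, Tnfrsf4 was called higher in DKO cells at 0 and 1 h and Tnfrsf1b at 0 h. Tnfrsf1b was also called higher in KO cells at 0 h. Tnfrsf8, with 1 hairpin of 4 pairs, was called higher in DKO cells at all 4 times. Cd27, with 1, was called lower there at 1 and 2 h, and Tnfrsf1a, with 1, was not called. Without a hairpin of this shape, Tnfrsf25 was called higher in DKO cells at all 4 times, and Tnfrsf9 and Tnfrsf18 were not called. Whether the hairpins play a part in these changes was not tested. A match to this shape is a description of the sequence and not evidence of binding.

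Tnfrsf8, the gene of CD30, lies on chromosome 4 (145267137 to 145315164, minus strand), 20266 bases from Tnfrsf1b with no protein-coding gene between them. It showed the widest range of the 8 receptors: the highest group mean, 2552.8 in TKO cells at 0 h, was 106.37 times the lowest, 24.0 in WT cells at 2 h. At 0 h the 4 TKO libraries had 2921.6, 3567.3, 3120.8 and 601.4, the DKO libraries 196.6, 645.7, 1256.0 and 727.6, the KO libraries 71.0, 127.8, 60.8 and 65.4, and the WT libraries 33.4, 36.3, 37.3 and 65.1. TKO and DKO libraries all lay above the WT libraries, as for 13.7% and 6.72% of all genes. The 4th TKO library fell within the range of the DKO libraries. The change against WT was 5.63 in TKO (SE 0.74, adjusted p = 4.75e-08) and 3.78 in DKO cells (SE 0.74, adjusted p = 0.000381), and 0.89 in KO cells, which was not called.

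At 1 h Tnfrsf8 averaged 1753.1 ± 908.3 in TKO, 429.8 ± 254.8 in DKO, 65.4 ± 17.8 in KO and 33.5 ± 11.9 in WT cells, and at 2 h 1892.0 ± 1146.2, 316.2 ± 230.3, 159.6 ± 123.5 and 24.0 ± 5.3 in the same order. At 4 h Tnfrsf8 had 229.1, 1636.7, 1890.5 and 1413.5 in the TKO libraries, 238.3, 255.3, 440.7 and 43.0 in DKO, 73.8, 288.0, 121.7 and 441.3 in KO, and 25.7, 24.9, 45.2 and 28.9 in WT. TKO and KO libraries were all above WT, as for 29% and 24.1% of all genes, and 1 DKO library fell inside the WT range. The TKO cells were higher than WT by 5.46 at 1 h, 5.85 at 2 h and 5.0 at 4 h (adjusted p = 1.05e-07, 1.74e-08 and 5.19e-07), and the DKO cells by 3.44, 3.29 and 2.57 (adjusted p = 0.00118, 0.00188 and 0.0265). The KO cells, not called at 0 and 1 h, were higher than WT by 2.38 at 2 h and 2.57 at 4 h (adjusted p = 0.0406 and 0.00776). The KO call at 2 h was lost when any of 7 of the 8 libraries was left out in turn (1.92 to 2.48), and the DKO call at 4 h when any of 6 was (2.15 to 2.55). With limma voom on recovered reads the DKO calls at 1, 2 and 4 h and the KO calls at 2 and 4 h were not made. The DKO call at 4 h was lost under 3 and the KO call at 2 h under 6 of the 11 other alternatives, voom included. The log2 fold changes of Tnfrsf8 in the authors' deposited table are smaller, at 1.84, 1.66 and 1.16 in DKO cells at 1, 2 and 4 h. TKO exceeded DKO cells by 2.56 at 2 h and 2.43 at 4 h (adjusted p = 0.0233 and 0.0239). Each of these 2 calls was lost on leaving out any of 4 libraries (1.92 to 2.37 and 1.74 to 2.27). Without the library of each group farthest from its group mean, TKO exceeded DKO cells at all 4 times, by 1.93, 2.08, 2.67 and 2.45 (adjusted p = 0.00166, 0.00164, 3.23e-05 and 0.00014), and WT by 6.18, 5.97, 6.53 and 5.69. TKO cells then also exceeded KO cells at 4 h, by 2.71 (adjusted p = 9.55e-05). DKO exceeded KO cells at 1 h, by 2.87 (adjusted p = 4.29e-05). Restimulation itself changed Tnfrsf8 by no called amount in any genotype over 4 libraries per group, with WT means of 31.2 ± 9.5 at 4 h and 43.0 ± 14.8 at 0 h. Without the farthest library of each group it was lower at 4 h in TKO cells (-0.96, adjusted p = 0.0485) and at 2 and 4 h in DKO cells (-1.16 and -1.48, adjusted p = 0.016 and 0.00247). In KO cells it was then higher at 2 and 4 h (1.09 and 1.59, adjusted p = 0.0229 and 0.00121). The DKO fall at 4 h was called under 6 of 11 alternatives.

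**Figure D2:**
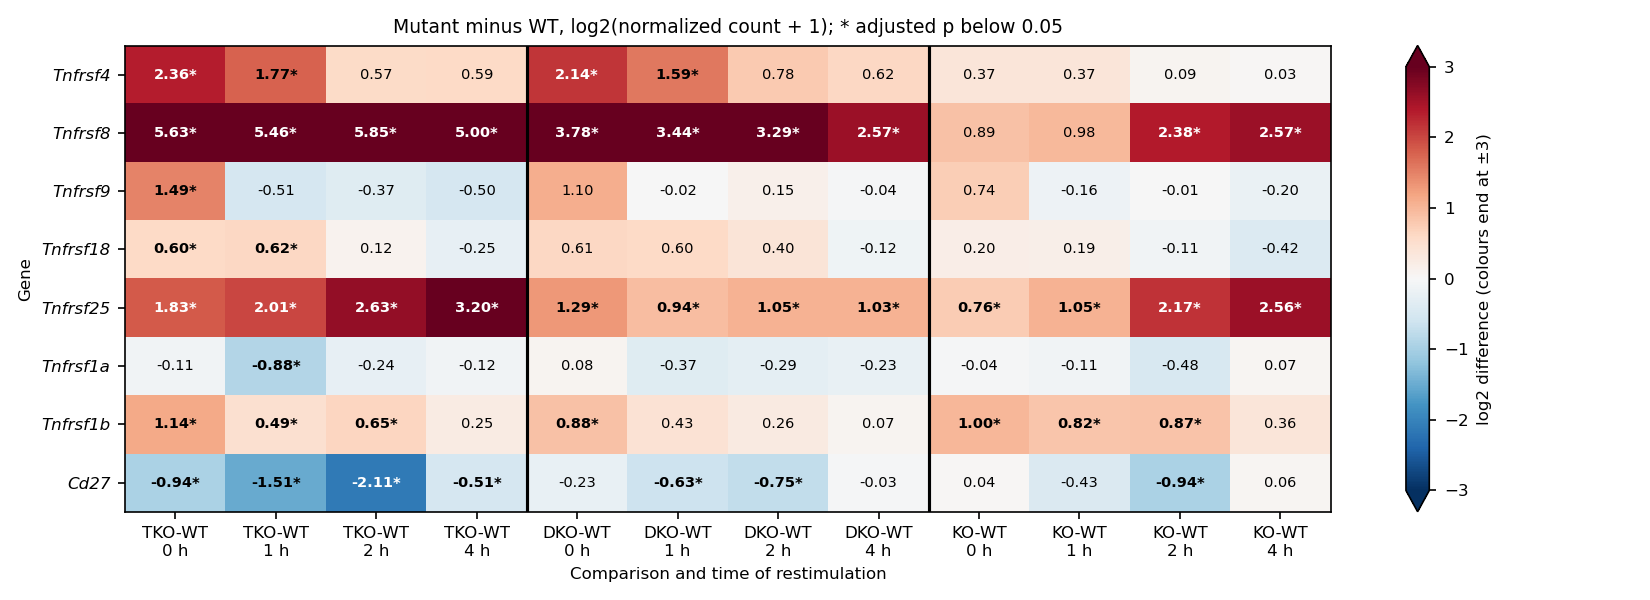
Grid of the log2 change of each receptor (rows) in TKO, DKO and KO against WT cells at 0, 1, 2 and 4 h (columns), from limma with 4 libraries per group; red is higher and blue lower in the mutant, colours end at 3 in either direction, and a star marks an adjusted p below 0.05. Tnfrsf8 in TKO cells lies between 5.0 and 5.85 at every time, Tnfrsf25 climbs to 3.20 at 4 h in TKO cells, and Cd27 lies below 0 in TKO cells with its lowest value, -2.11, at 2 h.

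The promoters of the receptors were read from the RefSeq table on GRCm38.p6 for 250 bases before the annotated start, and 8 of 8 receptors had an entry, 2 of them with 2 promoters. Both strands were searched for the NF-kappaB motif known as kappaB (10 letters, in 3.9% of 32851 promoters), for the AP-1 motif TGANTCA (6.75%) and for the NFAT motif TGGAAA (18.6%). The promoters of Tnfrsf9 and Tnfrsf8 are shown, since both hold a kappaB and an AP-1 match while Tnfrsf9 rose with restimulation and Tnfrsf8 was not called. Matches are in capitals, and overlapping matches run together.
Tnfrsf9, downstream promoter, chr4:150927749-150927998, plus strand: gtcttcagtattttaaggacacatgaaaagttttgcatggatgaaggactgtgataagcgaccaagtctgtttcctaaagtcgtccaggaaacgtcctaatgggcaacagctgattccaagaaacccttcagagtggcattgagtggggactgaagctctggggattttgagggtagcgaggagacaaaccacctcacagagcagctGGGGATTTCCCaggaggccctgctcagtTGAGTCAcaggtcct
Tnfrsf8, chr4:145315165-145315414, minus strand: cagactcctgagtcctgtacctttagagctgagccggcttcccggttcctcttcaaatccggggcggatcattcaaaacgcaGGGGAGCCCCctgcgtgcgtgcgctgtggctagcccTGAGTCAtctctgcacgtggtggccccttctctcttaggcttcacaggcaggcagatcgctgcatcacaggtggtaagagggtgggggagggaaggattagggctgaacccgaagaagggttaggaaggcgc
In the Tnfrsf9 promoter shown, 2 overlapping kappaB matches stand 43 to 34 and 42 to 33 bases before the start, and the AP-1 match 15 to 9 bases before it. In the Tnfrsf8 promoter the kappaB match stands 168 to 159 bases and the AP-1 match 132 to 126 bases before the start. The other Tnfrsf9 promoter and that of Tnfrsf4 held 1 NFAT match each and no other, and the promoters of Tnfrsf18, Tnfrsf25, Tnfrsf1a, Tnfrsf1b and Cd27 held none of the 3 motifs in this window. Tnfrsf4 also rose with restimulation in WT cells, and Tnfrsf1b rose at 1 h in every genotype. The part of these motifs in the changes was not tested.

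Tnfrsf9, the gene of CD137 (chromosome 4, 150914562 to 150946102, plus strand), was the receptor with the largest WT gain at 1 h. The WT libraries had 149.3, 112.3, 182.1 and 267.6 at 0 h. After 1 h they had 1954.0, 1732.8, 1187.0 and 1057.0, after 2 h 1776.2, 1735.2, 2592.8 and 2003.7, and after 4 h 1731.6, 2017.6, 1901.7 and 1973.5. The libraries of 1, 2 and 4 h were all above those of 0 h, as for 16%, 21.8% and 21.8% of all genes, and overlapped among themselves. WT cells gained 3.08, 3.56 and 3.48 at 1, 2 and 4 h (SE 0.42, adjusted p = 4.54e-08, 3.76e-10 and 6.03e-10). KO cells gained 2.18, 2.81 and 2.55 and DKO cells 1.96, 2.60 and 2.34, each called. TKO cells gained 1.70 at 2 h and 1.5 at 4 h (adjusted p = 0.000699 and 0.00244), with 1.08 at 1 h not called. Neither TKO gain was called when only the groups compared were fitted. The TKO call at 4 h was lost without the 4th TKO library at 0 h (0.94), and a call at 1 h was gained on leaving out either of 2 TKO libraries, the 2nd at 0 h or the 4th at 1 h (1.39 to 1.56).

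The smaller TKO gain of Tnfrsf9 went with a higher start. At 0 h the TKO libraries had 605.2, 1301.2, 441.6 and 147.8, the DKO libraries 335.9, 184.2, 979.4 and 286.8, the KO libraries 261.4, 549.5, 196.6 and 229.4, and WT as above. The 4th TKO library lay within the WT range and the other 3 above it. TKO cells were higher than WT by 1.49 (SE 0.42, adjusted p = 0.00471), a call lost without the 2nd TKO library (1.01), and DKO and KO cells by 1.10 and 0.74, not called. The TKO call at 0 h was also lost when only the groups compared were fitted. From 1 h on no genotype was called against WT, with TKO changes of -0.51, -0.37 and -0.50. The means at 1, 2 and 4 h were 1120.2 ± 606.7, 1706.7 ± 846.8 and 1420.1 ± 532.0 in TKO, 1476.8 ± 515.1, 2230.1 ± 319.9 and 1865.0 ± 316.4 in DKO, 1339.2 ± 447.4, 2031.3 ± 481.0 and 1697.4 ± 387.9 in KO, and 1482.7 ± 429.5, 2027.0 ± 395.3 and 1906.1 ± 125.7 in WT cells. The gain at 4 h was smaller in TKO than in WT cells (-1.99, SE 0.60, adjusted p = 0.032), a call lost on leaving out any of 9 of 16 libraries in turn (-1.5 to -1.98). This call was also lost when only the groups compared were fitted.

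Tnfrsf18, the gene of GITR, lies 9551 bases downstream of Tnfrsf4 (156026164 to 156028895, plus strand). It shares 414 of its 1524 exon bases (27.2%) with Gm16008 on the opposite strand, whose reads summed over all libraries were 5.68% of those of Tnfrsf18. It varied least of the 8: the highest group mean, 1095.8 ± 92.5 in DKO cells at 2 h, was 2.03 times the lowest, 540.8 ± 39.6 in KO cells at 4 h. At 0 h the TKO libraries had 917.0, 1477.3, 986.4 and 475.7, the DKO libraries 756.1, 767.7, 1432.0 and 794.5, the KO libraries 747.1, 1010.4, 552.8 and 497.2, and the WT libraries 566.2, 576.8, 455.2 and 806.8. All genotypes overlapped WT. TKO cells were called higher than WT by 0.60 at 0 h and 0.62 at 1 h (adjusted p = 0.0299 and 0.0289), and each call was lost on leaving out any of 6 of 8 libraries (0.36 to 0.59 and 0.48 to 0.63). DKO cells differed from WT by 0.61 and 0.60, which were not called (adjusted p = 0.082 and 0.0856). At 4 h the means were 613.5 ± 103.7 in TKO, 666.5 ± 88.8 in DKO, 540.8 ± 39.6 in KO and 721.4 ± 44.8 in WT cells, with no call against WT. Against its own 0 h level Tnfrsf18 was lower at 4 h in TKO cells (-0.56, adjusted p = 0.0341), a call lost on leaving out any of 5 of 8 libraries (-0.31 to -0.54). Without the farthest library of each group, Tnfrsf18 was also lower at 4 h in DKO and KO cells (both -0.46). Its change at 4 h then differed between TKO and WT cells (-1.13, adjusted p = 0.00893), and TKO exceeded KO cells at 0 h (0.56, adjusted p = 0.0389).

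Tnfrsf25, the gene of DR3 (chromosome 4, 152115934 to 152120119, plus strand), was higher in TKO, DKO and KO cells than in WT cells at all 4 times. At 0 h the TKO libraries had 290.3, 214.0, 291.3 and 282.5, the DKO libraries 196.6, 246.3, 138.9 and 167.8, the KO libraries 156.6, 108.1, 120.6 and 124.6, and the WT libraries 77.6, 81.9, 76.1 and 63.1. At 4 h they had 402.8, 481.6, 478.7 and 519.8 in TKO, 101.0, 119.9, 118.3 and 79.9 in DKO, 278.1, 321.7, 316.6 and 282.5 in KO, and 56.4, 39.6, 62.4 and 44.8 in WT. Each mutant group lay wholly above WT at both times, and at 4 h TKO, KO, DKO and WT libraries formed 4 ranges that did not overlap. At 0 h 13.7%, 6.72% and 3.27% of all genes had their TKO, DKO or KO libraries all above WT. Over all genes, 29%, 10.7% and 24.1% had their TKO, DKO or KO libraries all above WT at 4 h, 6.09% had TKO all above KO, and 9% had DKO all below KO. The means were 255.1 ± 35.8 in TKO, 124.4 ± 38.3 in DKO, 133.0 ± 36.1 in KO and 62.6 ± 8.9 in WT cells at 1 h, and 520.3 ± 110.2, 174.1 ± 39.3, 379.8 ± 95.2 and 83.0 ± 15.2 in the same order at 2 h. The changes of TKO against WT were 1.83, 2.01, 2.63 and 3.20 at 0, 1, 2 and 4 h (SE 0.20, adjusted p = 1.19e-10, 7.49e-12, 6.41e-16 and 5.41e-19), or 3.61-fold at 0 h and 9.27-fold at 4 h between means. In DKO cells they were 1.29, 0.94, 1.05 and 1.03 (adjusted p = 3.76e-06, 0.000822, 0.000185 and 0.000362). In KO cells they were 0.76, 1.05, 2.17 and 2.56 (adjusted p = 0.029, 0.000398, 3.49e-12 and 6.28e-15). The KO call at 0 h was lost on leaving out any of 6 of 8 libraries (0.65 to 0.78) and without the farthest library of each group (0.77). It was also lost with limma voom and when only the groups compared were fitted.

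The change of Tnfrsf25 with time also differed from that of WT cells. In KO cells it rose over 0 h by 1.55 at 2 h and 1.24 at 4 h, and in TKO cells by 0.93 and 0.81, whereas it fell by 0.82 at 4 h in DKO and by 0.56 at 4 h in WT cells, the last of which was not called without the 2nd WT library at 4 h (-0.45) or without the farthest library of each group (-0.50). The change differed between KO and WT cells by 1.41 at 2 h (SE 0.28, adjusted p = 0.00657) and 1.80 at 4 h (adjusted p = 5.4e-05), and between TKO and WT cells by 1.37 at 4 h (adjusted p = 0.000683). Between KO and WT cells 0, 1 and 1 of the 8 receptors differed in their change at 1, 2 and 4 h, beside 0.0248%, 0.204% and 2.19% of all genes. DKO minus KO was -1.12 at 2 h and -1.52 at 4 h (adjusted p = 0.000225 and 3.51e-07). TKO lay above DKO cells by 1.07, 1.58 and 2.17 at 1, 2 and 4 h, and above KO cells by 1.08 and 0.96 at 0 and 1 h. TKO minus KO was 0.46 at 2 h and 0.65 at 4 h, not called (adjusted p = 0.117 and 0.062), although all TKO libraries were above all KO libraries at 4 h.

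Of the receptors for TNF itself, Tnfrsf1b (TNFR2, chromosome 4, 145213463 to 145246870, minus strand) had 124.1 normalized counts per kilobase of exon in WT cells at 0 h, against 38.4 for Tnfrsf1a. At 0 h its libraries had 1274.7, 1130.9, 1137.8 and 707.7 in TKO, 783.1, 875.4, 919.0 and 907.1 in DKO, 1224.9, 823.6, 1031.7 and 767.2 in KO, and 530.4, 470.3, 500 and 394.7 in WT. Every mutant library lay above every WT library, which 3.27% of all genes showed for KO cells. The changes were 1.14 in TKO, 0.88 in DKO and 1.00 in KO cells (SE 0.15, adjusted p = 6.05e-08, 5.71e-05 and 9.46e-06). KO cells stayed higher by 0.82 at 1 h and 0.87 at 2 h, and TKO cells by 0.49 and 0.65. The TKO call at 1 h was lost without the 2nd TKO or the 2nd WT library (0.42 and 0.40). DKO cells were not called from 1 h on and lay below KO cells at 2 h (-0.60, adjusted p = 0.0174), a call lost without the 2nd DKO or the 1st KO library (-0.52 to -0.43). The means at 2 h were 852.4 ± 63.1 in TKO, 663.1 ± 149.0 in DKO, 990.8 ± 123.1 in KO and 544.3 ± 76.2 in WT cells. No genotype was called at 4 h, with 575.8 ± 25.2 in TKO, 511.6 ± 64.3 in DKO, 621.2 ± 34.1 in KO and 484.3 ± 36.5 in WT cells.

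Tnfrsf1b had its highest mean at 1 h in every genotype: 1842.6 ± 268.7 in TKO, 1789.3 ± 369.6 in DKO, 2319.9 ± 333.2 in KO and 1312.1 ± 196.6 in WT cells. Over 0 h it rose by 0.82 in TKO, 1.01 in DKO, 1.28 in KO and 1.46 in WT cells (adjusted p = 3.65e-05, 2.8e-07, 7.49e-10 and 1.25e-11). Over 0 h it fell by 0.85 in TKO, 0.77 in DKO and 0.61 in KO cells by 4 h, while WT cells had 484.3 ± 36.5 at 4 h and 473.8 ± 58.2 at 0 h. The change at 4 h differed between TKO and WT cells by -0.89 (SE 0.22, adjusted p = 0.00588).

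Tnfrsf1a, the death-domain receptor TNFR1 (chromosome 6, 125349362 to 125362484, plus strand), had levels of 39.1 to 157.5 across all 64 libraries. At 1 h the TKO libraries had 67.2, 75.6, 59.6 and 71.5, the DKO libraries 102.6, 80.8, 102.7 and 106.8, the KO libraries 157.5, 117.4, 95.9 and 105.0, and the WT libraries 152.5, 97.1, 145.2 and 119.1. The TKO libraries were all below those of the other 3 genotypes, which 4.85%, 6.33% and 10.5% of all genes showed against DKO, KO and WT cells. TKO cells were lower than WT (-0.88, SE 0.21, adjusted p = 0.000841) and than KO cells (-0.77, adjusted p = 0.0101, lost without the 1st KO library). No other mutant comparison with WT was called for this gene, whose means at 0 h were 90.8 ± 18.6 in TKO, 102.8 ± 19.7 in DKO, 97.1 ± 30.7 in KO and 99.4 ± 32.3 in WT cells. With restimulation it fell in all 4 genotypes by 4 h: by 0.91 in TKO, 1.21 in DKO, 0.80 in KO and 0.90 in WT cells (adjusted p = 0.000161, 1.1e-06, 0.000711 and 0.000161).

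Cd27 (chromosome 6, 125232622 to 125237010, minus strand), whose product sustains T cells after priming, was lower in TKO than in WT cells at all 4 times. At 2 h its libraries had 222.2, 292.7, 199.0 and 158.6 in TKO, 619.7, 385.1, 617.3 and 621.5 in DKO, 479.2, 449.5, 429.3 and 579.4 in KO, and 901.7, 1044.7, 1064.8 and 730.1 in WT. All mutant libraries were below all WT libraries, which 10.9%, 2.5% and 2.67% of all genes showed for TKO, DKO and KO cells, and the TKO libraries were also below those of DKO and KO cells (6.67% and 6.47% of all genes). The changes against WT were -2.11 in TKO (SE 0.20, adjusted p = 3.81e-12), -0.75 in DKO (adjusted p = 0.0107) and -0.94 in KO cells (adjusted p = 0.00153). TKO minus DKO was -0.71, -0.88 and -1.37 and TKO minus KO -0.98, -1.08 and -1.17 at 0, 1 and 2 h, each called, although TKO minus DKO at 0 h was lost without either of 2 libraries (-0.51 and -0.60) and without the farthest library of each group (-0.40). TKO minus KO at 4 h was called without those libraries (-0.64, adjusted p = 0.0468).

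At the other times Cd27 averaged 348.0 ± 124.8 in TKO, 549.6 ± 92.2 in DKO, 658.1 ± 85.1 in KO and 648.4 ± 132.0 in WT cells at 0 h, 287.3 ± 57.2, 528.8 ± 91.5, 606.9 ± 99.0 and 814.7 ± 113.1 in the same order at 1 h, and 305.5 ± 60.2, 430.6 ± 105.4, 459.1 ± 102.8 and 433.7 ± 57.3 at 4 h. TKO minus WT was -0.94 at 0 h, -1.51 at 1 h and -0.51 at 4 h (adjusted p = 0.00025, 5.44e-08 and 0.0343). The call at 4 h was lost on leaving out any of 5 of 8 libraries (-0.40 to -0.50). The DKO call at 1 h (-0.63) was lost on leaving out any of 6 libraries (-0.55 to -0.65), and that at 2 h without the 2nd DKO library (-0.58). WT cells rose by 0.54 at 2 h and fell by 0.57 at 4 h, whereas TKO cells fell by 0.64 at 2 h, and the difference in change at 2 h was -1.18 (SE 0.29, adjusted p = 0.00743). Neither this difference nor the TKO fall was called when only the groups compared were fitted. The WT calls were lost on leaving out any of 4 (0.41 to 0.49) and any of 3 libraries (-0.49 to -0.47). The WT call at 4 h was also lost without the farthest library of each group (-0.39), and the TKO call without the 2nd library at 0 h or the 4th at 2 h (-0.50 to -0.42).

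**Figure D3:**
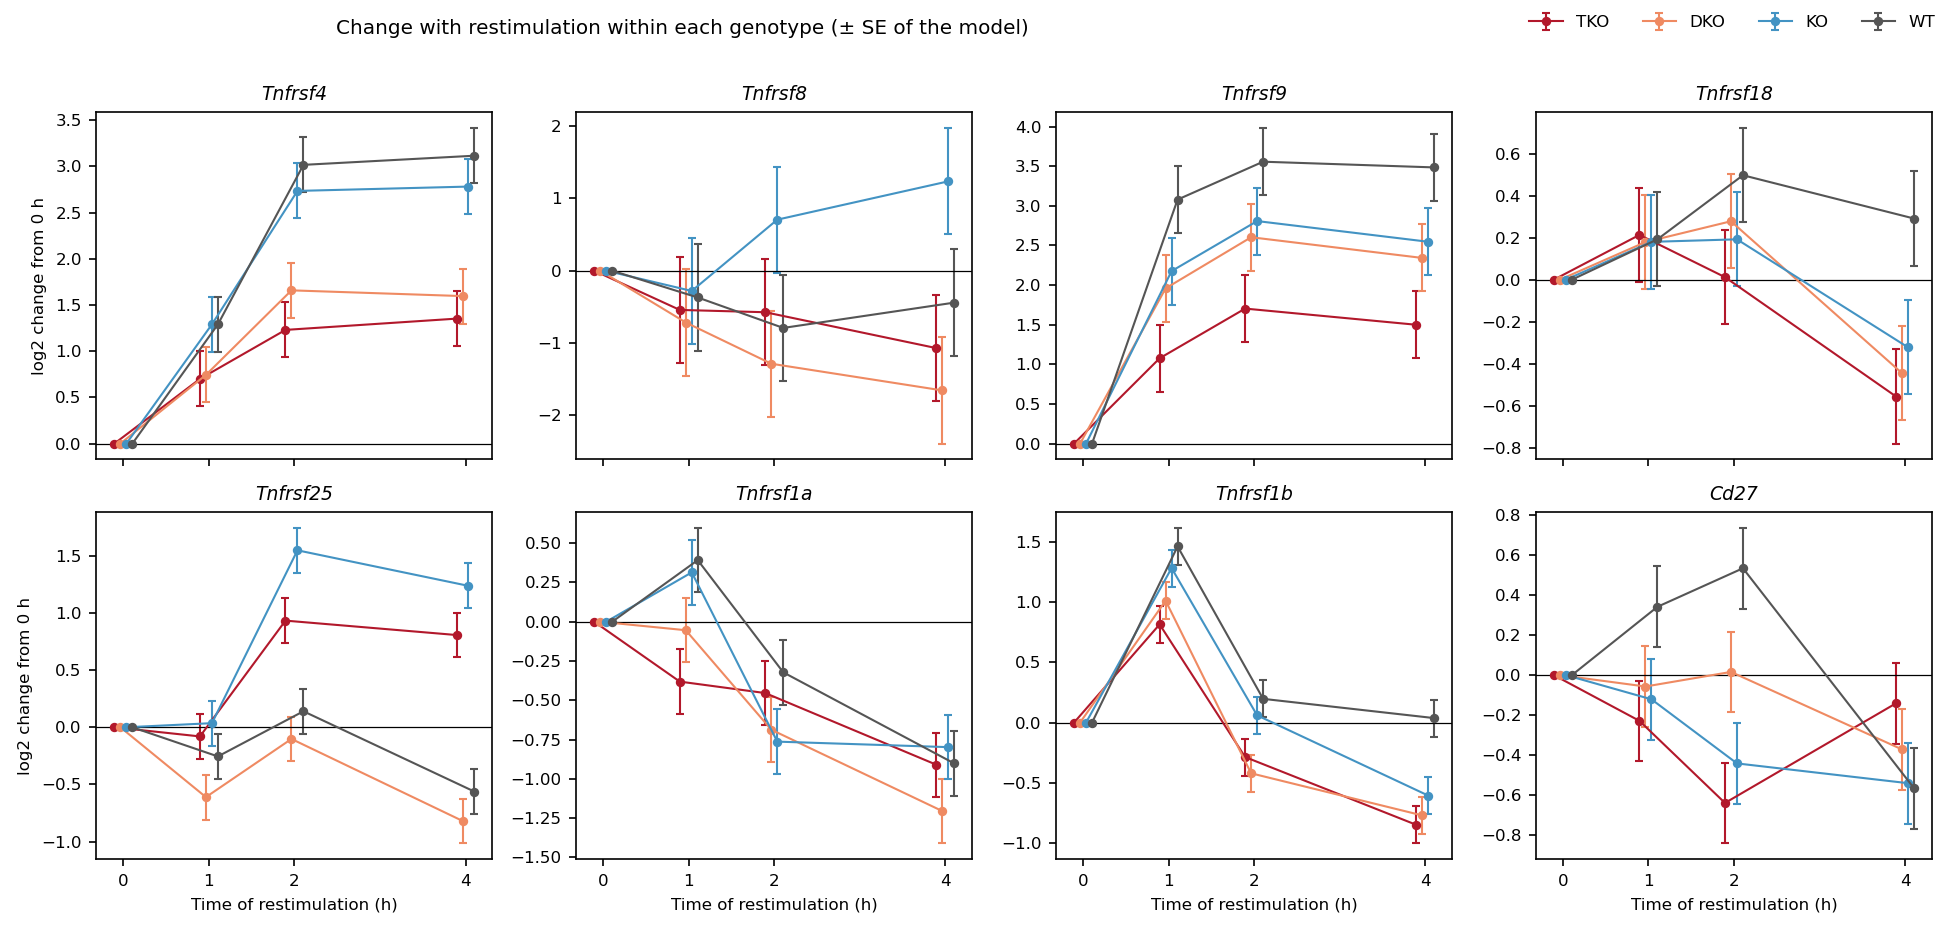
Log2 change of each receptor at 1, 2 and 4 h over 0 h within TKO, DKO, KO and WT cells, with bars of 1 SE from limma (4 libraries per group) and 0 h set to 0; vertical scales differ between receptors. At 4 h the gains of Tnfrsf4 and Tnfrsf9 are 1.35 and 1.5 in TKO cells and 3.12 and 3.48 in WT cells, and Tnfrsf25 lies above 0 in TKO and KO cells and below 0 in DKO and WT cells.

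Per kilobase of exon, which allows receptors to be compared with each other, Tnfrsf4 had the highest level of the 8 in WT cells after 1, 2 and 4 h (721.6, 2366.0 and 2523.5 normalized counts per kb), while at 0 h Tnfrsf18 led with 394.5 before Tnfrsf4 with 300.3 and Cd27 with 278.5. In TKO cells at 0 h the order was Tnfrsf4 (1727.1), Tnfrsf8 (738.0), Tnfrsf18 (632.6), Tnfrsf1b (278.4), Tnfrsf9 (229.2), Cd27 (149.5), Tnfrsf25 (118.4) and Tnfrsf1a (35.0). In WT cells at 0 h Tnfrsf8 was the lowest of the 8, at 12.4, below Tnfrsf25 at 32.8 and Tnfrsf1a at 38.4. Ordered by genotype at 0 h, Tnfrsf8 and Tnfrsf25 ran TKO, DKO, KO and WT downward. For Tnfrsf8 the neighbours TKO and DKO, and KO and WT, were not called apart. Its DKO and KO cells were called apart, by 2.90 (adjusted p = 0.0302). That call was lost on leaving out any of 6 of 8 libraries (2.53 to 2.85). It was also lost with limma voom and when only the groups compared were fitted. For Tnfrsf25 the neighbours TKO and DKO, and DKO and KO, were not called apart. For Tnfrsf4 the same order held, with TKO and DKO, and KO and WT, not called apart. For Cd27 the order upward was TKO, DKO, WT and KO, and the last 3 were not called apart.

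The TKO cells were also set against the sum of the DKO and KO changes on the log2 scale. For the 8 receptors at 4 times, 0 of 32 such differences were called by limma, 5 had an unadjusted p under 0.05, and over all genes 0.836%, 0.254%, 0.155% and 0.167% were called at 0, 1, 2 and 4 h. For the difference in restimulation change between DKO and WT cells 0 of 24 were called, 6 had an unadjusted p under 0.05, and over all genes 0.105%, 0.347% and 0.818% were called at 1, 2 and 4 h.

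The ligands of the 8 receptors were read in the same cells, since activated T cells make several of them. Tnfsf15 and Tnfsf18 did not pass the filter on low values, and 6 of 8 were tested. With restimulation 6, 6 and 5 of them rose in WT cells at 1, 2 and 4 h and 0 fell. Of all genes 31.1%, 52% and 51.7% changed there in either direction. In TKO against WT cells 4, 2, 1 and 1 were higher at 0, 1, 2 and 4 h, and 0, 2, 3 and 2 lower. The shares of all genes were 19.3%, 15.8%, 20% and 27.4% higher and 18%, 15.7%, 16.4% and 16.3% lower. For DKO and KO cells the shares stand with the receptor counts above. In DKO cells 3, 2, 1 and 0 were higher and 0, 0, 1 and 0 lower (3 at an unadjusted p under 0.05 at 4 h by limma), and in KO cells 1 ligand was called higher at 1 h and 0 at the other times (by limma, with 3, 0 and 2 at an unadjusted p under 0.05 at 0, 2 and 4 h).

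Cd70, the ligand of CD27, was higher in TKO than in WT cells at all 4 times, by 2.67, 3.17, 2.16 and 1.32 (adjusted p = 2.8e-05, 1.4e-06, 0.000452 and 0.0265), and higher in DKO cells at 0, 1 and 2 h by 1.93, 2.13 and 1.79. Its level was 8.9 ± 4.0 in TKO and 0.5 ± 0.6 in WT cells at 0 h, and 234.4 ± 115.2 in TKO and 90.6 ± 31.2 in WT cells at 4 h. Cd27 itself was lower in TKO cells at those times. Tnfsf9, the ligand of CD137, was higher at 0 h in TKO (43.1 ± 20.6) and in DKO cells (28.4 ± 17.3) than in WT cells (7.8 ± 5.5), by 2.46 and 1.81. Tnfsf8, the ligand of CD30, was higher in TKO cells by 1.77 at 0 h and 1.46 at 1 h, a time also with calls in DKO and KO cells (1.07 and 1.35). Lta, which binds both TNF receptors, was higher at 0 h by 1.41 in TKO and in DKO cells.

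After restimulation 3 ligands were lower in TKO than in WT cells. Lta was lower at 2 h (-0.96). Tnf was lower than WT in TKO cells at 1, 2 and 4 h (-0.96, -1.94 and -1.27, adjusted p = 0.0278, 1.5e-05 and 0.00252), with 3982.2 ± 1969.4 in TKO and 14609.1 ± 5207.4 in WT cells at 2 h. Tnf was not called in DKO or KO cells at any time. Tnfsf4, the ligand of OX40, was lower than WT in TKO cells at 1, 2 and 4 h (-1.01, -1.34 and -1.45) and in DKO cells at 2 h (-1.42).

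**Figure D4:**
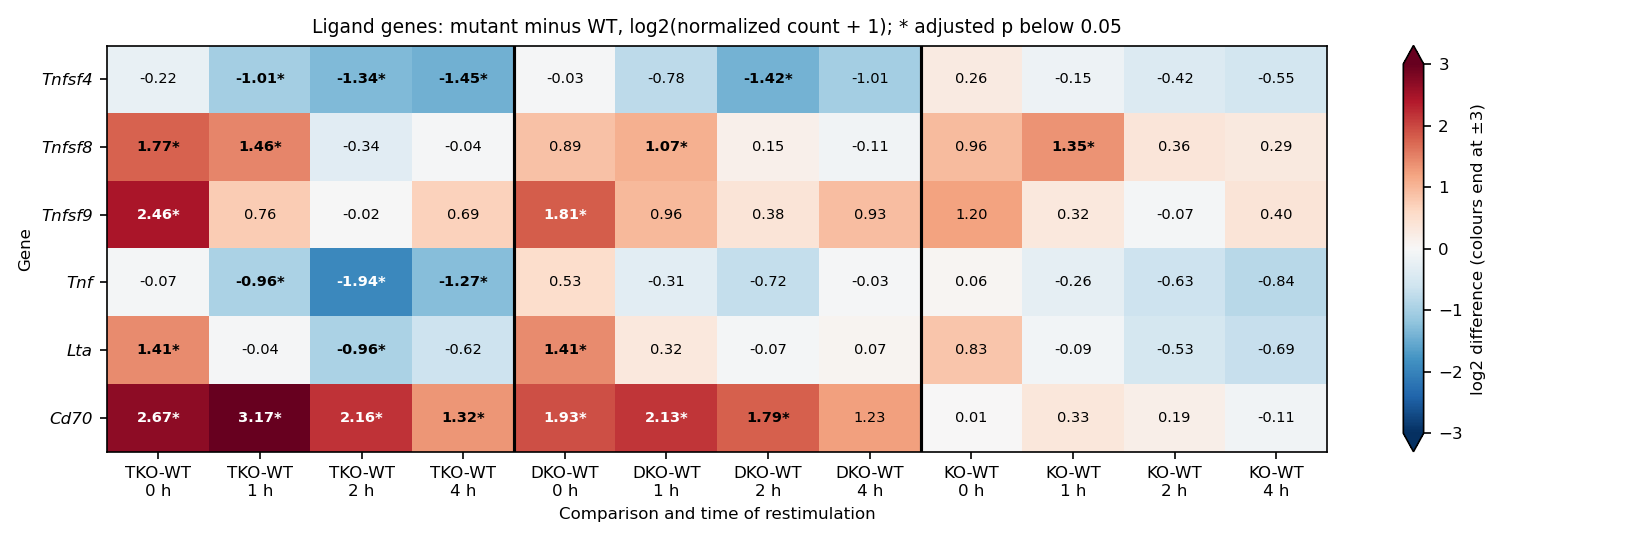
Grid of the log2 change of the 6 tested ligands (rows) in TKO, DKO and KO against WT cells at 0, 1, 2 and 4 h (columns), from limma with 4 libraries per group; red is higher and blue lower in the mutant, colours end at 3 in either direction, and a star marks an adjusted p below 0.05. Cd70 lies above 0 in TKO cells at every time, and Tnf and Tnfsf4 lie below 0 in TKO cells from 1 h on.

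Downstream of the receptors, 19 of 20 listed adaptors and regulators were tested. In TKO against WT cells 4, 0, 4 and 8 were higher at 0, 1, 2 and 4 h and 1, 2, 1 and 0 lower. Of all genes 19.3%, 15.8%, 20% and 27.4% were higher and 18%, 15.7%, 16.4% and 16.3% lower. In KO cells 8 were higher at 4 h, when 21.7% of all genes were called higher. At 4 h Cyld, a deubiquitinase that restrains NF-kappaB, was higher by 1.25 in TKO and 0.89 in KO cells, Tank by 0.80 and 0.53, and Tradd, the adaptor of TNFR1 and DR3, by 0.79 and 0.72. Tank was also higher in TKO cells at 0 h, by 0.96. The NF-kappaB target Tnfaip3 (A20) rose by 4.07, 5.03 and 4.10 at 1, 2 and 4 h in WT cells and was not called in any mutant against WT. Traf1, which binds several of these receptors, rose by 2.39, 2.58 and 1.08 in WT cells and was lower in DKO than in WT cells at 4 h (-0.50, adjusted p = 0.0498).

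Of 20 other genes of the superfamily 14 were tested, and in TKO against WT cells 3, 3, 2 and 5 were higher at 0, 1, 2 and 4 h and 3, 2, 2 and 2 lower, counts near the shares of all genes given for the adaptors. Tnfrsf13b (TACI, a receptor known from B cells) was higher in every mutant at every time: by 2.16, 2.86, 3.23 and 2.97 in TKO, 1.10, 1.55, 1.88 and 1.35 in DKO, and 0.78, 1.06, 1.12 and 1.66 in KO cells. Its level at 0 h was 708.7 ± 148.4 in TKO, 334.7 ± 43.8 in DKO, 268.9 ± 47.0 in KO and 155.6 ± 14.8 in WT cells. Tnfrsf19 was lower in TKO cells at 0, 1 and 2 h (-2.19, -1.81 and -1.64), from low levels (2.0 ± 1.4 in TKO and 12.2 ± 3.4 in WT cells at 0 h). Tnfrsf14 (HVEM) was higher in TKO cells by 0.88 at 0 h, 1.15 at 2 h and 1.26 at 4 h.

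Regulatory T cells are known to carry OX40, GITR, CD137 and TNFR2, and a list of 7 of their markers was read at 0 h. Its summed level spanned 19621.2 to 26706.1 in TKO, 17050.2 to 22713.5 in DKO, 14287.3 to 19985.4 in KO and 8984.5 to 12078.2 in WT libraries. Most of this sum was Il2ra, which activated T cells also express, at 15208.3 ± 2431.8 in TKO and 8849.6 ± 1415.9 in WT cells. In TKO against WT cells 4 of the 7 were higher and 1 lower (19.3% and 18% of all genes). In DKO cells 5 were higher and 0 lower (5.33% and 2.27%), and in KO cells 3 and 0 (1.17% and 0.167%). Of the other markers, Foxp3 averaged 81.7 ± 71.9 in TKO, 127.2 ± 65.2 in DKO, 70.2 ± 5.1 in KO and 168.7 ± 111.2 in WT cells. Ctla4 and Ikzf2, which other activated T cells also express, averaged 3477.6 ± 950.6 and 2728.7 ± 534.3 in TKO and 483.7 ± 269.7 and 381.7 ± 206.5 in WT cells. Over all 64 libraries and times, Ikzf4 spanned 28.9 to 555.1, Nrp1 94.5 to 3256.1 and Lrrc32 25.6 to 896.8. The summed level of 6 B cell markers was 3254.4 to 4730.7 in TKO and 1035.7 to 2153.6 in WT libraries at 0 h, most of it Ighm, with Ms4a1 at no more than 21 in any library. The part of either list in the receptor levels was not tested.

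Across the 16 group means, Tnfrsf4 and Tnfrsf9 had a Pearson r of 0.79, Tnfrsf8 and Tnfrsf25 one of 0.79, and Tnfrsf8 and Cd27 one of -0.82. Both genes of a pair were read in the same libraries, so the values are descriptions. Over all tested genes, the one most like Tnfrsf4 was Zbtb32 (r = 0.979), most like Tnfrsf8 was Gatm (0.972), and most like Tnfrsf9 were Mrps6 (0.983) and Tnfsf11 (0.979), the gene of the TNF family ligand RANKL. Tnfrsf25 was nearest to Cebpd (0.925) and Ly75 (0.923), Tnfrsf1b to C920009B18Rik (0.96) and Tbce (0.954), Tnfrsf1a to Gps2 (0.96), Tnfrsf18 to Itgal (0.936) and Cd27 to Emp3 (0.906), each over the same 16 means.

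In the authors' deposited table the mutant against WT comparisons of the 8 receptors give 96 values with a false discovery rate. Of these the authors' deposited table has 42 below 0.05, against 44 called here, and 35 are called in both with the same direction. The authors' rate is labelled as the worst and may differ in kind from the adjusted p-values here, so the counts are not like for like. Of the 54 values with a log2 change above 0.5 in size, 54 had the same sign in both. For Tnfrsf8 in DKO cells the authors' deposited table has rates of 0.097 at 2 h and 0.084 at 4 h, where the change was called here, and for Tnfrsf18 it has rates of 0.18 at 0 h and 0.073 at 1 h in TKO cells. Also called here alone were Tnfrsf25 in KO cells at 0 h (rate 0.128) and in DKO cells at 1 h (0.059). The others were Tnfrsf8 in KO cells at 2 h (0.084), Tnfrsf9 in TKO cells at 0 h (0.086) and Tnfrsf1b in TKO cells at 1 h (0.124). Of 7 values called in the authors' deposited table alone, 4 are the Tnfrsf4 values at 2 and 4 h given above, and 1 is Tnfrsf9 in TKO cells at 4 h (rate 0.023, log2 fold change -0.53). The authors' deposited table also calls Tnfrsf18 lower in TKO and KO cells at 4 h (log2 fold changes of -0.33 and -0.54), where the values here were -0.25 and -0.42 and not called.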

How the data were processed

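Total RNA was sequenced in 64 libraries (NuGEN kit, per the labels' protocols). The deposited table holds 23134 genes and, per the file headers, a list of 4 normalized counts for each of 16 groups, a false discovery rate (an adjusted p-value) and a log2 fold change per comparison. The genome build was GRCm38, per the submitters' processing notes. The sources used here name no aligner, counting tool or use of strand. The lists carry no replicate numbers, so libraries are named by group and place. The 48 deposited columns of group means, minima and maxima were not used. Low values were whole multiples of 1 step, and with a tolerance of 0.1 read 100% of them gave whole reads, from which depths were taken.

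Genes were kept (16140) at 1.295 CPM or more in at least 4 libraries and 15 reads in all. Values were rescaled with TMM factors (trims of 30% and 5%, rescaling 0.83 to 1.16) and tested with limma 3.58.1 in R 4.3.3 on log2(value + 1), which understates changes of low genes, with a mean for each group in 1 fit of 64 libraries (48 residual degrees of freedom), trend and robust moderation, and Benjamini-Hochberg adjustment. The design had foreseen this for normalized values. The fit was tested on simulated data with independent libraries and the same relative spread for every gene. That test does not cover shared mice, outlying libraries or genes of wider spread. The receptors, lists and tests were chosen with earlier results of these data known. Named were the 8 receptors, the targeted genes, up to 4 called genes of each list with the largest change per comparison, and the genes most like each receptor over 16 group means. Tnfaip3 and Traf1 were named by their WT changes. Tools besides were Python 3.11.15, numpy 2.4.6, pandas 2.3.3, scipy 1.17.1 and matplotlib 3.10.9. A further marker gene is not reported here and was left out of its list.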

Additional observations from a re-analysis of the deposited data

Results flagged for a closer look

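Among the 128 sets of 4 libraries (8 receptors in 16 groups), 13 held 1 library far from the other 3, judged by its gap to the nearest library over the whole range. Chance alone gives about 1 in 20 sets. In DKO cells at 0 h 1 library had 3348.4 for Tnfrsf4 against 1304.8 to 1460.4 in the others, and the same library had 1432.0 for Tnfrsf18 against 756.1 to 794.5. In DKO cells at 1 h Tnfrsf4 was 4145.2 in 1 library against 2480.0 to 2665.9, and the same library was low for Tnfrsf1b (1236.6 against 1948.8 to 2014.7) and for Tnfrsf1a (80.8 against 102.6 to 106.8). Tnfrsf8 was high in 1 KO library at 0 h (127.8 against 60.8 to 71.0) and in 1 WT library at 0 h (65.1 against 33.4 to 37.3). Tnfrsf25 was low in 1 TKO library at 0 h (214.0 against 282.5 to 291.3) and in 1 at 1 h (201.4 against 271.6 to 275.3). Tnfrsf1a was low in 1 TKO library at 0 h (63.1 against 98.1 to 103.3) and high in 1 WT library at 0 h (147.8 against 80.7 to 84.8). Tnfrsf1b in TKO cells at 4 h had 613.5 against 560.7 to 567.2. Cd27 in DKO cells at 2 h had 385.1 against 617.3 to 621.5.

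Of 72 tests of whether restimulation changed a receptor by a different amount in mutant and WT cells, 8 were called by limma. In TKO cells the change was lower than in WT cells for Tnfrsf4 at 2 h and 4 h (-1.79 and -1.76, adjusted p = 0.00577 and 0.00493), for Tnfrsf9 at 4 h (-1.99, adjusted p = 0.032), for Tnfrsf1b at 4 h (-0.89, adjusted p = 0.00588) and for Cd27 at 2 h (-1.18, adjusted p = 0.00743). It was higher than in WT cells for Tnfrsf25 in TKO cells at 4 h (1.37, adjusted p = 0.000683) and in KO cells at 2 h and 4 h (1.41 and 1.80, adjusted p = 0.00657 and 5.4e-05). The Tnfrsf4, Tnfrsf9 and Cd27 calls were not made when only the groups compared were fitted.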

How the results depend on the processing

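No paired analysis was possible because the deposited lists carry no replicate numbers. Beside leaving out each library, 11 alternatives were run, 2 of them chosen after seeing the data (without the farthest library of each group, and with a term for high Xist, which was high in 1 of 4 libraries of every TKO and KO group and in 2 of 4 of every DKO and WT group). Of 130 called receptor values 92 were called under every alternative, of 278 others 215 under none, and 0 changed direction. Of the counts of called receptor values, with the deposited scaling the differences in restimulation change from WT were 12 in TKO, 7 in DKO and 5 in KO cells (6, 0 and 2 as reported), and those from additivity 2 (0 as reported). That scaling moved the median of all genes (DKO minus WT at 0 h to 0.23, with 4067 genes higher and 92 lower in place of 861 and 367). DKO differences in change were 1 with median-of-ratios factors, upper quartile factors, a term for high Xist or only the groups compared, and 2 with a stricter filter. Non-additivity gave 1 with upper quartile factors and 1 with the Xist term. Fitting only the groups compared gave 5 for TKO minus DKO (8 as reported), 6 for TKO over 0 h (11) and 2 for TKO differences in change (6), with fewer libraries behind each fit. Leaving out 1 library gave 19 to 21 for TKO minus WT, 12 to 14 for DKO, 9 to 10 for KO, 7 to 9 for TKO minus DKO, 10 to 13 for TKO minus KO, 5 to 7 for DKO minus KO, 10 to 13, 11 to 14, 12 to 14 and 10 to 11 for restimulation in TKO, DKO, KO and WT cells, 5 to 10, 0 to 1 and 2 to 2 for the differences in change of TKO, DKO and KO cells (10 without the 4th TKO library at 0 h), and 0 to 2 for non-additivity. For the other moves the cause was not tested. Count models on recovered reads were not run beyond limma voom, which gave 21, 10 and 7 for TKO, DKO and KO minus WT. Depth limits Tnfrsf8 most, with 14 reads in its lowest library.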
